A study of Homo sapiens with 8 samples.

Results

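Small nucleolar RNAs (snoRNAs) were followed in 8 RNA libraries of EA.hy926, a permanent human line that came from a fusion of umbilical vein endothelial cells with the lung carcinoma line A549. The snoRNAs described are the symbols of the deposited expression table that start with SNORA or SNORD and a digit, and which were selected on their FPKM (fragments per kilobase of transcript, scaled by library size): its mean had to be at least 5 over the 8 libraries. Of 523 such symbols, 122 met this rule, 51 of 181 SNORA and 71 of 342 SNORD, out of 27946 genes in the table. The rule uses the level of each snoRNA over all libraries, so the levels themselves are given as a description.

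The study asked what the enhancers of a super-enhancer named SE12313 contribute to endothelial cells, and removed E2 or another of them, SE12313-b, with CRISPR/Cas9. SE12313-b had shown no enhancer activity in reporter assays and was deleted as the negative control. The paper reports that its deletion nevertheless lowered ADAMTS18 and proliferation and changed many of the same genes as the deletion of E2. The 3 ΔE2 libraries came from lines without the enhancer E2, the 3 ΔSE12313-b libraries from lines without SE12313-b, and the 2 control libraries from EA.hy926 control cells. Each line carrying a deletion was a clone, so a difference between a deletion and the controls can also hold what separates clones from a mixed culture, and these cannot be told apart here. Total RNA was isolated with the RNeasy Mini kit, depleted of ribosomal RNA, fragmented and sequenced as single reads of 75 bases with a directional kit. How well these steps keep RNAs as short as snoRNAs was not tested, so the values are levels in the libraries.

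SnoRNAs are short RNAs of the nucleolus that guide the chemical modification of ribosomal RNA. Box C/D snoRNAs, named SNORD in humans, guide 2′-O-methylation by fibrillarin (FBL). Box H/ACA snoRNAs, named SNORA, guide pseudouridylation by dyskerin (DKC1). A few of them act in the cleavage of the ribosomal precursor instead. Most human snoRNAs are cut out of introns of a host gene after splicing, and many hosts encode ribosomal proteins or non-coding RNAs of the SNHG group.

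The boxes that give both classes their names can be read in the reference sequence of several snoRNAs that the results below turn on. In the SNORD sequences the capitals mark the C box letters TGATG near the 5′ end and the D box letters CTGA near the 3′ end, and in the SNORA sequences the letters ACA close to the 3′ end. All coordinates are of GRCh37, as in the deposited table, and each sequence is given 5′ to 3′ on its own strand.
SNORA23 (chr11:9450313-9450501, plus strand, in an intron of IPO7): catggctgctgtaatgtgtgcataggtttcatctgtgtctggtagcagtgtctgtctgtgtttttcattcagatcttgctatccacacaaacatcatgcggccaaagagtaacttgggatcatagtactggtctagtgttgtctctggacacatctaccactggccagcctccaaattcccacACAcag
SNORA73B (chr1:28835070-28835274, plus strand, in an intron of SNHG3): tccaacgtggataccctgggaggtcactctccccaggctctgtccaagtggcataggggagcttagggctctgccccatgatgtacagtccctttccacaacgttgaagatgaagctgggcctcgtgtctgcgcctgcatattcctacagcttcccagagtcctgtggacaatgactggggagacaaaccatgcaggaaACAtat
SNORA59A (chr1:12567300-12567451, plus strand, in an intron of VPS13D): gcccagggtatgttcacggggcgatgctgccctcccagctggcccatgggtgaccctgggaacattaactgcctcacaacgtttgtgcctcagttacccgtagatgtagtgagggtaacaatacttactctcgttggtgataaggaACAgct
SNORD60 (chr16:2205024-2205106, minus strand, in SNHG19): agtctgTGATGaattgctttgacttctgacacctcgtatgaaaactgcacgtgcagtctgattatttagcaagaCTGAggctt
SNORD86 (chr20:2636743-2636828, plus strand, in NOP56): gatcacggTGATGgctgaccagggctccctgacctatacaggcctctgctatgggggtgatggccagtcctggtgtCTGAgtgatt
SNORD80 (chr1:173833971-173834041, minus strand, in GAS5): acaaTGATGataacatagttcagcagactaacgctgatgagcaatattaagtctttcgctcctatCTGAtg

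Of the 71 SNORD members, 60 held TGATG within their first 15 bases (84.5%) and 63 held CTGA within their last 12 (88.7%). Of all 342 SNORD symbols these shares were 73.7% and 84.5%, and of stretches of the same length 500 bases upstream they were 1.17% and 5.56%. ACA stood in the last 10 bases, before at least 3 further ones, in 45 of the 51 SNORA members (88.2%), in 85.6% of all SNORA symbols and in 4.97% of the upstream stretches. Motifs were searched on the strand of the snoRNA only. SNORA members were longer, with a median of 135 bases (86 to 205), than SNORD members, with a median of 75 (48 to 237).

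The libraries held between 12067555 and 19101135 reads, and the reads behind each FPKM could be recovered as whole numbers. Few of them fell on a snoRNA. The median read number over the 8 libraries was under 10 for 37 of the 122 members, 34 of them SNORD, and its median was 23.5 for SNORA and 10.5 for SNORD members. The 2 control libraries differed by little more than counting error, with a chi-square of 1.20 per gene over 13748 genes. All 122 members passed the filter of the test across genes, and a mean of at least 5 FPKM was reached by 109 of them in the controls, by 119 in ΔE2 and by 106 in ΔSE12313-b. A further 138 of the 523 symbols had no read in any library. Among these were all 48 copies of SNORD115, a snoRNA family of neurons.

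Some members share their letters with a messenger RNA. The 2 highest members, SNORD141A and SNORD141B, were listed at the same place in the gene of the translation factor EEF1A1, with 8515 and 8817 FPKM of SNORD141A in the controls, and 44.8% of their bases match its main transcript without a mismatch. SNORA105A and SNORA105B (HSPD1), SNORA86 and SNORA104 (both ITGB1), SNORA100 (HNRNPU) and SNORA31B (TPT1) also match a coding transcript over at least 40% of their bases at an identity of at least 95%. For these 8 members snoRNA and messenger cannot be told apart. The search covered main coding transcripts only. By coordinates, 11 members lie at least in part in an exon of a gene's main transcript, and 87 in an exon of another transcript. A further 21 lie in an intron and 3 in no gene. For members in such exons, reads of the transcript and of the snoRNA cannot be told apart either. In ΔE2 the log2 change was -0.52 for SNORD141A and -0.57 for EEF1A1, and -0.78 for SNORA86 and -0.83 for ITGB1. For SNORA31B and TPT1 the values lay apart, with -0.40 and -0.98 in ΔE2 and -1.56 and -0.87 in ΔSE12313-b. SNORD140, which the table places in no gene, ranged from 27.8 to 115 FPKM over the clones. Besides SNORD141A and SNORD141B, 3 pairs of symbols are listed at a shared place and carry the same or nearly the same reads. These are SNORA59A with SNORA59B, SNORD116-17 with SNORD116-19, and SNORA105A with SNORA105B.

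Among members without such a match, SNORA73B stood highest. It belongs to the U17 snoRNAs, which act in cleavage of the precursor of the small subunit's RNA, and its near copy SNORA73A was not analysed here. It had 925 and 791 FPKM in the controls, and between 47.4% and 63.2% of the reads on the 45 SNORA members without a match were its own. SNORD133 (intron of LARP4) followed with 158 and 156 FPKM in the controls, then SNORD49B (115.6 and 157). SNORA63, SNORA17B and SNORD17 came next by the mean over all libraries, with 84.6 and 63.7, 53.3 and 54.2, and 68.4 and 79.7 FPKM in the controls. The median of the 8-library mean over all 122 was 11.9 FPKM. At the threshold, SNORA84, SNORD42B and SNORD116-4 stood just inside with means of 5.13, 5.09 and 5.03 FPKM, and SNORD83A, SNORA94 and SNORA21B just outside with 4.9996, 4.97 and 4.97.

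The first comparison asked which snoRNAs differed in lines without E2. A change was called where limma gave an adjusted p under 0.05 and the fold was at least 2. In ΔE2, 7 members rose and 5 fell (6 and 8 with libraries centred on their median, 6 and 13 after quantile normalization), while over the 13790 genes tested 11.2% were called higher and 8.36% lower. The median log2 change was 0.08 over the members and 0.14 over all genes. Without the 2-fold condition 26 members passed, 12 higher and 14 lower, against 54.1% of all genes. ΔE2 and the controls did not overlap for 40.2% of the members and 73.5% of all genes tested. Of the 12 called, 4 had a mean under 5 FPKM over the libraries outside the group where they were higher (SNORA74A, SNORD4A, SNORD116-18 and SNORD116-21). Such members would not have met the rule without that group, so their differences are not independent of it and are a description. In RNA from many cells, fewer cells with a transcript and less of it per cell cannot be told apart, which holds for all values here.

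SNORA23, an H/ACA snoRNA in an intron of the import receptor gene IPO7, was the clearest rise. It had 9.22 and 11.5 FPKM in the controls and 40.9, 31.4 and 39.5 in ΔE2, and these groups did not overlap. The ΔSE12313-b clones had 9.92, 8.26 and 10.4 FPKM and overlapped with the controls. The log2 change in ΔE2 was 1.84 ± 0.16 (SE; limma, adjusted p = 5.36e-05), on 48 reads in the controls and 349 in ΔE2. IPO7 itself showed a log2 change of 0.01 (limma, adjusted p = 0.907).

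SNORA74A, the U19 snoRNA, had 2.38 and 2.92 FPKM in the controls and 28.9, 9.10 and 19.9 in ΔE2. All ΔE2 clones lay above all controls, but they differed by more than 3-fold among themselves, and replicate 1 was the highest. The mean of the 5 libraries outside ΔE2 was 4.40 FPKM. The log2 change was 2.68 ± 0.41 (limma, adjusted p = 0.000991), on 13 and 195 reads. Its host SNHG4 did not pass the test (0.26, adjusted p = 0.448 in limma).

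SNORD46, a C/D snoRNA, rose by 1.55 ± 0.34 (limma, adjusted p = 0.0058), from 9.74 and 11.1 FPKM in the controls to 35.6, 30.7 and 26.5. SNORD60 had 4.80 and 4.04 FPKM in the controls and 12.1, 9.97 and 10.75 in ΔE2, a log2 change of 1.29 ± 0.23 (limma, adjusted p = 0.00206). SNORD86 lies in NOP56, which encodes a core protein of C/D particles, and its 18.5 FPKM in each control stood against 67.1, 33.0 and 51.8 in ΔE2. Its rise of 1.39 ± 0.25 (limma, adjusted p = 0.00233) went with a rise of NOP56 by 1.19 (limma, adjusted p = 0.000222). The other members in NOP56, SNORD57 and SNORD110, changed by 0.40 and 0.69 in ΔE2. In ΔSE12313-b, where NOP56 rose by 1.24, they changed by -0.52 and -0.24, and neither was called in either deletion. For SNORD46, SNORD60 and SNORD86 ΔE2 and the controls did not overlap, which also held for 73.5% of all genes tested.

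SNORD4A (intron of RPL23A) had 0 and 2 control reads, beside 10, 9 and 11 in ΔE2. The ratio of ΔE2 to control reads, each scaled to the library total (RPM), was 7.45, with an exact 95% interval from 1.89 to 64.4 that covers counting error only. Its fitted change of 4.13 moved between 2.39 and 5.80 with the pseudocount and is no measure of size. SNORA50C, the last called rise, had 7.63 ± 1.02 FPKM (SD, n = 2) in the controls and 16.8 ± 7.98 (n = 3) in ΔE2. That call was lost under 8 of the 10 alternative settings and without either control, ΔE2 replicate 1 or 3, or ΔSE12313-b replicate 1, with adjusted p of up to 0.188 in limma.

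Of the snoRNAs that fell in ΔE2, SNORA103 and SNORD58B had the most reads. SNORA103 lies at least in part in an exon of the main transcript of the non-coding RNA GAS5. It had 59.3 and 44.85 FPKM in the controls and 12.9, 13.7 and 13.8 in ΔE2. It fell by 1.93 ± 0.27 on the log2 scale (limma, adjusted p = 0.000636). SNORD58B lies in an exon of other RPL17 transcripts and had 96.9 and 126 FPKM in the controls against 44.3, 44.02 and 52.0, a log2 change of -1.24 ± 0.13 (limma, adjusted p = 0.000143), while RPL17 changed by -0.24. SNORD45C (RABGGTB) had 35.8 and 33.4 FPKM in the controls and 14.96, 12.9 and 12.4 in ΔE2, but its adjusted p of 0.0332 in limma rose up to 0.14 when single libraries were left out. The fit without control replicate 1, control replicate 2 or any of the ΔE2 clones lost the call.

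SNORD116-18 and SNORD116-21 belong to a cluster in the imprinted Prader-Willi region that is known for its expression in brain. They had 10.0 ± 2.20 and 8.71 ± 1.54 FPKM (SD, n = 2) in the controls, and 2.63 ± 2.11 and 2.38 ± 0.13 (n = 3) in ΔE2. The log2 changes were -2.14 ± 0.52 and -1.82 ± 0.40 (limma, adjusted p = 0.00959 and 0.00587), on 13 and 11 reads in all 3 ΔE2 clones. Without control replicate 2 both calls were lost, with adjusted p of 0.0757 and 0.0532 in limma. Over all 30 copies of the family the libraries held 113 and 117 reads in the controls, 83, 53 and 77 in ΔE2, and 98, 110 and 119 in ΔSE12313-b, although every ΔE2 library was deeper than the controls. Their host SNHG14 had a log2 change of 0.11 in ΔE2 (limma, adjusted p = 0.371).

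**Figure D1:**
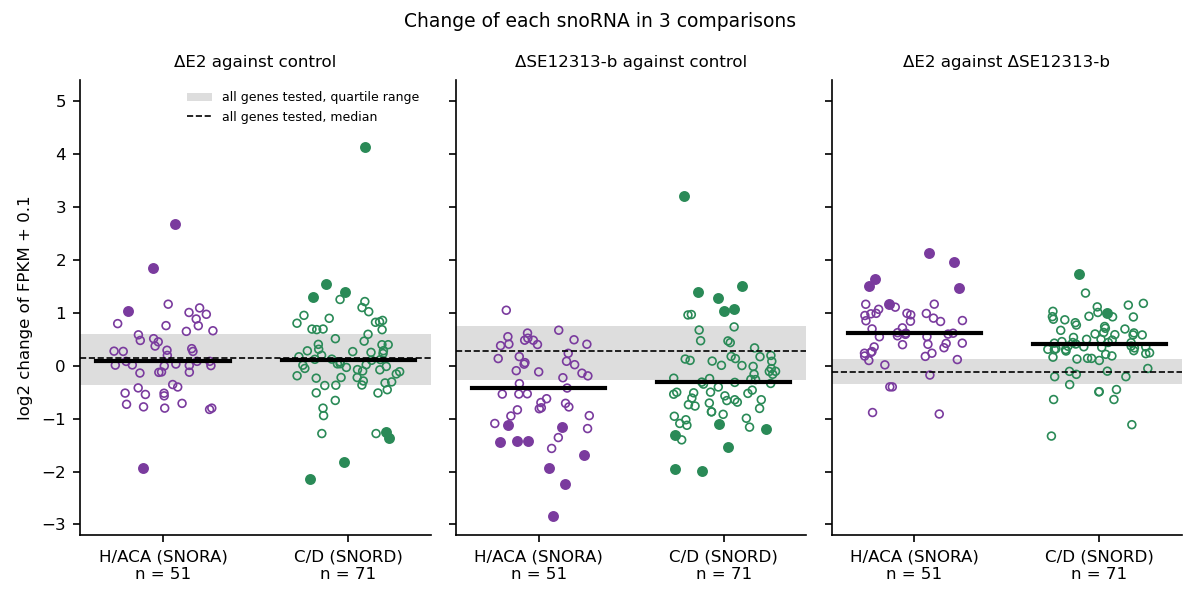
Log2 change of FPKM + 0.1 of each of the 51 SNORA and 71 SNORD members in 3 comparisons. Filled points were called (adjusted p under 0.05 and at least 2-fold), short bars are class medians, and the dashed line and grey band are the median and quartile range of all 13790 genes tested. In ΔE2 against ΔSE12313-b both class medians, 0.61 and 0.41, lie above the band of all genes.

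In lines without SE12313-b, most of the snoRNAs called were lower. Of the 122 members 15 fell and 6 rose (2 rose and 25 fell with libraries centred, and 3 and 31 after quantile normalization), while 7.83% of all genes tested were called lower and 14.7% higher. The median log2 change was -0.34 over the members and 0.27 over all genes, and 79 of the 122 lay below 0. Relative to the median of all genes the members thus stood lower by 0.61. Of the 21 called, SNORA33, SNORA84, SNORD58C and SNORD88B would not have met the rule without the group where they were higher, so their differences are a description. Without the 2-fold condition 37 passed, 26 of them lower, against 59.4% of all genes. ΔSE12313-b and the controls did not overlap for 41.8% of the members and 75.3% of all genes tested.

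SNORA73B, the most abundant member without a match to a messenger, was among those that fell. It had 925 and 791 FPKM in the controls, 975, 702 and 907 in ΔE2 and 391.9, 259 and 552 in ΔSE12313-b. The ΔSE12313-b clones lay below every other library, and ΔE2 and the controls overlapped. The log2 change was -1.16 ± 0.29 (limma, adjusted p = 0.00926), on 4344 and 3856 reads. Without control replicate 1 the adjusted p was 0.071, and without ΔSE12313-b replicate 2 the change was -0.88, under 2-fold. The host SNHG3 changed by -0.67 (limma, adjusted p = 0.0015).

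SNORA59A, whose reads are shared with the symbol SNORA59B, showed the smallest error among the falls. It had 18.8 and 20.9 FPKM in the controls, 12.5, 10.8 and 10.7 in ΔE2, and 7.41, 8.05 and 6.67 in ΔSE12313-b, so that no 2 groups overlapped. The log2 change in ΔSE12313-b was -1.42 ± 0.11 (limma, adjusted p = 2.82e-05), and in ΔE2 it was -0.80 ± 0.11 (limma, adjusted p = 0.000645), which stayed under 2-fold. VPS13D, the host at the listed place, changed by 0.49 in ΔSE12313-b. SNORA59A is listed with 2 places in the genome, so its reads cannot be tied to this host.

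SNORD58B, the C/D snoRNA of RPL17 that was lower in ΔE2, had 29.65, 25.96 and 28.1 FPKM in ΔSE12313-b and 96.9 and 126 in the controls. It changed by -1.99 ± 0.13 (limma, adjusted p = 1.08e-05), beside -0.16 for RPL17. SNORA103 of GAS5 was at 14.6, 18.3 and 8.88 FPKM, a log2 change of -1.94 ± 0.27 (limma, adjusted p = 0.000491). SNORD45C was at 12.9, 13.2 and 4.09 FPKM, a change of -1.95 ± 0.45 (limma, adjusted p = 0.00639), and its host RABGGTB fell by 1.06.

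Among the largest falls by fold are H/ACA snoRNAs with few reads. SNORA84, in an intron of the isoleucyl-tRNA synthetase gene IARS, had 15 reads in each control but 1, 2 and 7 in the ΔSE12313-b clones. The ratio of control to ΔSE12313-b RPM was 5.67, with an exact 95% interval from 2.70 to 12.998 for counting error, and limma gave -2.83 ± 0.68 (adjusted p = 0.00764). SNORA33, in an intron of RPS12, had 13 and 18 control reads and 5, 3 and 4 in ΔSE12313-b, a log2 change of -2.24 ± 0.36 (limma, adjusted p = 0.00106). SNORD101, a C/D snoRNA of RPS12 too, had 6 and 7 reads and 4, 5 and 1, and the interval of its read ratio, from 0.160 to 1.01, reached 1. Its call (adjusted p = 0.0487 in limma) was lost without any library but ΔSE12313-b replicate 2, with adjusted p of up to 0.196, and RPS12 itself changed by -0.98. SNORA25 of TAF1D had 13 and 18 reads against 11, 6 and 3, a log2 change of -1.68 ± 0.61 whose adjusted p of 0.0437 in limma reached 0.207 when single libraries were left out. The libraries without which it was lost were both controls, ΔE2 replicate 1, and ΔSE12313-b replicates 2 and 3.

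The 6 called rises in ΔSE12313-b were all C/D snoRNAs. The largest H/ACA change upwards, 1.05 for SNORA74A, did not pass (limma, adjusted p = 0.0557), and 4 SNORA members were higher at an unadjusted p under 0.05 in limma. SNORD133 rose from 158 and 156 FPKM to 337, 260.0 and 383, a log2 change of 1.04 ± 0.18 (limma, adjusted p = 0.00146), and in ΔE2 it was at 282, 238 and 325, a change of 0.83 (limma, adjusted p = 0.00518). The rise in ΔSE12313-b was 0.91 without ΔSE12313-b replicate 3, under 2-fold, and 0.49 at the least under the other settings. SNORD86 was at 43.9, 42.9 and 49.6 FPKM, a change of 1.29 ± 0.25 (limma, adjusted p = 0.00284), which was 0.86 at the least when libraries were rescaled. SNORD60 was at 8.34, 14.8 and 13.05 FPKM, a change of 1.39 ± 0.23 (limma, adjusted p = 0.00115), and its host SNHG19 rose by 1.00. SNORD88B had 3 reads in each control and 16, 12 and 7 in ΔSE12313-b, a read ratio of 3.09 (1.28 to 8.98), and its adjusted p of 0.0157 in limma became 0.0818 without control replicate 1 and 0.0721 without control replicate 2. SNORD74 had 7 and 4 control reads, beside 11, 21 and 12, a change of 1.06 that was lost under 6 of the 10 alternative settings and was 0.70 without control replicate 2 and 0.74 without ΔSE12313-b replicate 2. SNORD4A had 4, 6 and 5 reads against 0 and 2, and the interval of its ratio, from 0.923 to 35.8, held 1. Its call (adjusted p = 0.0341 in limma) was kept only without control replicate 2 or ΔE2 replicate 2.

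Set directly against each other, the deletions differed in one direction for most snoRNAs. ΔE2 was above ΔSE12313-b for 103 of the 122 members and above the median of all genes for 106, and the median log2 difference was 0.47, beside -0.11 over all genes. It ranged from 0.36 to 0.58 when single libraries were left out, with the lower value without ΔE2 replicate 1. In this comparison 8 members were higher in ΔE2 and 0 lower, while 1.6% of all genes tested were called higher and 2.63% lower. At an unadjusted p under 0.05 in limma 30 members were higher and 7 lower, and voom on the recovered reads called 8 higher and 0 lower. Without the 2-fold condition 18 passed as higher and 4 as lower, against 26% of all genes in either direction. Those 4 were SNORA86, SNORA104, SNORA105A and SNORA105B, all with a match to a messenger. SNORA86 had the largest difference downwards of its class, -0.91, and SNORD116-18 that of the SNORD members, -1.33, which did not pass (limma, adjusted p = 0.0718). The count of 8 depended on the libraries. It was 15 without ΔSE12313-b replicate 3, and 5 without either control, and without ΔE2 replicate 1 it was 4 higher and 1 lower.

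Of the 8, 6 were H/ACA snoRNAs. SNORA33, SNORA74A, SNORA84 and SNORD101 would not have met the rule without the ΔE2 libraries, with means of 4.40 to 4.97 FPKM outside them. The control means of SNORA33, SNORA84 and SNORD101 were nevertheless 9.53, 9.18 and 7.31 FPKM. SNORA23 differed by 1.95 ± 0.14 on the log2 scale (limma, adjusted p = 0.000257), the most precise of these differences. SNORA32 of TAF1D had 21.4, 13.6 and 11.0 FPKM in ΔE2 and 4.145, 5.625 and 6.29 in ΔSE12313-b, a difference of 1.47 ± 0.25 (limma, adjusted p = 0.00473). SNORA33 had 7.93, 6.64 and 3.34 FPKM against 2.36, 1.53 and 1.91, a difference of 1.51 ± 0.32 (limma, adjusted p = 0.0124). These 3 calls were kept without any single library and under all 10 other settings.

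SNORA74A differed by 1.63 ± 0.37 (limma, adjusted p = 0.015), with 6.25, 5.09 and 5.38 FPKM in ΔSE12313-b, and without ΔE2 replicate 3 the adjusted p was 0.0546. SNORA73B differed by 1.16 ± 0.26 (limma, adjusted p = 0.0149). Without ΔE2 replicate 1 or 3 its adjusted p was 0.0541 or 0.0527, and without ΔSE12313-b replicate 2 the difference was 0.88. SNORA84 (2.12 ± 0.61), SNORD101 (1.73 ± 0.51) and SNORD15B (1.00 ± 0.27) passed with adjusted p of 0.0364, 0.0417 and 0.031 in limma. SNORD15B, a snoRNA of RPS3, had 50.2, 31.4 and 25.8 FPKM in ΔE2 and 13.7, 15.4 and 23.9 in ΔSE12313-b, and in ΔSE12313-b against the controls (37.5 and 41.1) it fell by 1.19, with an adjusted p of 0.0694 in limma without control replicate 2. Beside the fit without ΔSE12313-b replicate 3, SNORA84 kept its call only without ΔE2 replicate 2, SNORD101 only without ΔSE12313-b replicate 2, and SNORD15B only without ΔE2 replicate 3. Without other libraries, either control included, the adjusted p reached 0.117, 0.101 and 0.0993 in limma. No host of the 8 was called in this comparison.

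Between the classes, the medians in ΔE2 were 0.08 for SNORA and 0.10 for SNORD, and those in ΔSE12313-b were -0.42 and -0.32. In the direct comparison they were 0.61 and 0.41. The difference of SNORA minus SNORD was thus -0.02, -0.11 and 0.20. On another measure, the median log2 level of SNORA minus SNORD members without a match to a messenger, libraries of a group varied by 0.33 (pooled SD). That spread is of levels in single libraries, so it sets no limit for the differences of changes. Without ΔSE12313-b replicate 2 the difference in ΔSE12313-b was 0.37, the other way round, without replicate 3 it was -0.38, and without control replicate 2 it was 0.08. By counts, 9 of 51 SNORA and 6 of 71 SNORD members fell in ΔSE12313-b, with SNORA59A and SNORA59B, which share their reads, both counted. In limma 0 and 6 rose (4 and 9 at an unadjusted p under 0.05, and 4 in all by voom). Of all genes 7.83% fell and 14.7% rose. In the direct comparison 17 SNORA (33.3%) and 5 SNORD (7.04%) members passed an adjusted p under 0.05 in limma, beside 26% of all genes. Of the 17, 13 were higher in ΔE2 and 4 lower, and the 4 all match a messenger. A median of 23.5 against 10.5 reads stands behind these counts, and its part in them was not tested.

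The 45 SNORA members without a match to a messenger took 299 and 274 RPM in the controls, 386, 249 and 299 in ΔE2, and 158, 111 and 235 in ΔSE12313-b. The ΔSE12313-b clones lay below all other libraries. SNORA73B alone accounted for 189 and 161 in the controls and for 79.9, 52.8 and 113 in ΔSE12313-b. Without it the sums were 110 and 113 in the controls, 187, 105 and 114 in ΔE2, and 78.1, 58.5 and 122 in ΔSE12313-b, and the groups overlapped. The 69 SNORD members without a match took 140 and 145 RPM in the controls, 185, 143 and 170 in ΔE2 and 149, 134 and 170 in ΔSE12313-b, again with overlap.

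**Figure D2:**
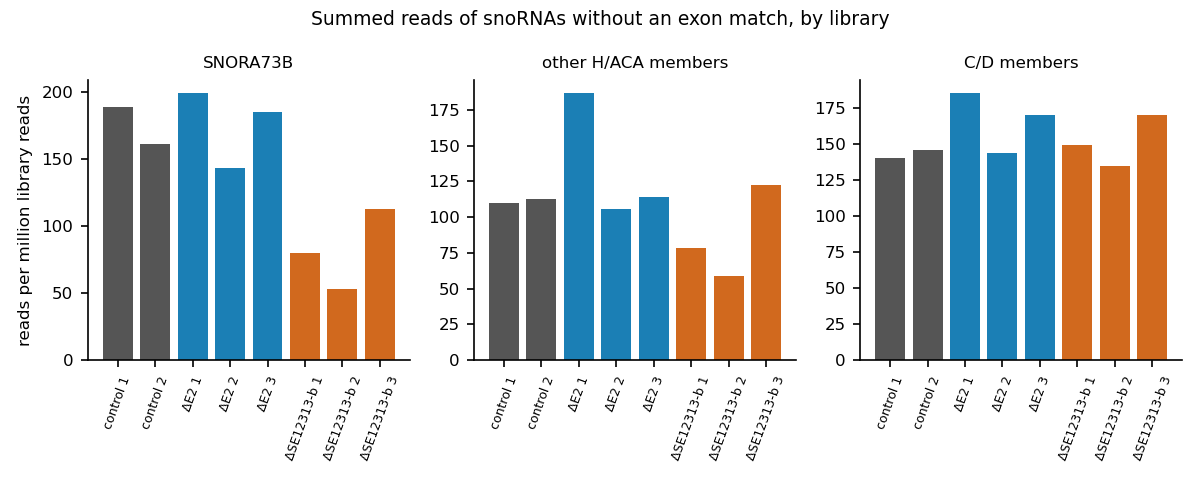
Scaled reads (RPM), in each of the 8 libraries, of SNORA73B, of the other 44 SNORA members and of the 69 SNORD members without a match to a messenger (bars from 0, colours by group). SNORA73B lies between 52.8 and 113 in ΔSE12313-b and between 143 and 199 elsewhere, and among the other SNORA members ΔE2 replicate 1 is highest with 187.

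The clones of a deletion were not alike in their H/ACA snoRNAs. In ΔE2, 37 of 45 SNORA members without a match were highest in replicate 1, against 31 of 69 SNORD members and 3149 of the 13790 genes. In ΔSE12313-b, 24 of the 45 were highest in replicate 3 and 24 were lowest in replicate 2. Set against counting error, the median chi-square per degree of freedom of SNORA members was 4.00 over the ΔE2 clones and 1.96 over the ΔSE12313-b clones, and that of SNORD members was 1.13 and 1.70, beside 3.11 and 3.203 over all genes tested. Between the controls the SNORA and SNORD values were 0.54 and 0.46. Under counting error alone such a median lies below 1. Where clones differ it also grows with the reads, whose median was 23.5 for SNORA and 10.5 for SNORD members. The part of read depth in these values was not tested.

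Most members lie within another gene of the table, and 118 of the 122 could be placed in 59 host genes by their coordinates and strand. Of these hosts 33 held 1 member and 6 held at least 4. Of the 11 members called in ΔE2 with a host, 2 had a host called the same way (SNORA103 with GAS5, SNORD86 with NOP56) and 9 a host not called. In ΔSE12313-b 7 of 21 called members had a host called the same way, 13 a host not called and 1, SNORD74, a host called the opposite way. SNORA59A and SNORA59B, which share their reads, both count among the 13. In the other direction, 21 members not called lay in a called host in ΔE2 and 21 in ΔSE12313-b, 18 of them each time in a host that fell. Reads from a host's unspliced RNA, or from a host transcript with an exon there, and from its snoRNA cannot be told apart in these values.

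GAS5, a non-coding RNA whose spliced form accumulates when growth stops, is host to 9 members and was at 313 and 303 FPKM in the controls, 86.3, 92.8 and 93.3 in ΔE2, and 101, 95.4 and 91.5 in ΔSE12313-b. It fell by 1.76 and 1.68 on the log2 scale. SNORA103 fell with it. At least part of SNORA103 lies in an exon of the main GAS5 transcript, so the reads of both cannot be told apart. The other 8 members, all C/D snoRNAs, overlap exons of other GAS5 transcripts only. They had changes from -0.37 up to 0.86 (ΔE2) and from -0.74 up to 1.06 (ΔSE12313-b). Their summed RPM were 7.56 and 6.46 in the controls, 8.48, 7.59 and 8.59 in ΔE2, and 6.40, 9.32 and 5.92 in ΔSE12313-b. SNORD80 had 10.1 and 8.29 FPKM in the controls and 17.95, 14.2 and 12.6 in ΔE2, where every clone lay above both controls. The fitted change of the group was 0.68 ± 0.17 (limma, adjusted p = 0.0113). In ΔSE12313-b SNORD80 had 11.5, 11.6 and 14.4 FPKM (0.44, adjusted p = 0.0584 in limma).

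ZFAS1, a further non-coding RNA host, was examined after its values were known. It was at 480 FPKM in each control, 155, 152 and 142 in ΔE2, and 104, 111 and 122.6 in ΔSE12313-b, and it fell by 1.68 and 2.09 on the log2 scale. Its members SNORD12, SNORD12B and SNORD12C changed by -0.03 to 0.25 in ΔE2 and by -0.35 to 0.13 in ΔSE12313-b, and none was called. Their summed RPM were 4.80 and 5.05 in the controls, 5.44, 4.61 and 5.88 in ΔE2, and 3.98, 6.62 and 3.02 in ΔSE12313-b.

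At TAF1D, which encodes a subunit of the RNA polymerase I factor SL1, members and host were lower together in ΔSE12313-b. TAF1D was at 52.4 and 56.0 FPKM in the controls, 36.9, 34.7 and 42.9 in ΔE2 and 19.3, 24.0 and 18.6 in ΔSE12313-b, and fell by 1.40 in the latter (limma, adjusted p = 6.98e-05). All 6 members had changes below 0, from -1.68 to -0.81, and 3 were called, SNORA25, SNORA32 and SNORD5. SNORA18 was at 10.2 and 12.7 FPKM in the controls and 6.17, 6.70 and 4.80 in ΔSE12313-b (-0.95 ± 0.22, adjusted p = 0.00659 in limma), just under 2-fold. In ΔE2 the members lay between -0.94 and 0.03, and TAF1D changed by -0.51.

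SNHG1, host to 8 SNORD members, changed by 0.03 in ΔE2 and -0.67 in ΔSE12313-b, and its members ran from -0.16 to 1.25 in the former and from -1.02 to 0.97 in the latter, with none called. Of them SNORD31 had an adjusted p under 0.05 in ΔE2 (0.90 ± 0.30, 0.0365 in limma). EIF4A2, a translation factor gene with 5 members, fell by 1.04 in ΔE2 (limma, adjusted p = 8.05e-05), where its members lay between -0.57 and 0.08, and in ΔSE12313-b its member SNORA81 was called (-1.12), a call lost without either control, ΔSE12313-b replicate 1 or ΔSE12313-b replicate 3, with adjusted p of up to 0.133 in limma. The 4 members of RPL13A changed by 0.04 to 0.80 in ΔE2, and in ΔSE12313-b by -0.50 to 0.47, and none was called. The 5 SNORD116 members of SNHG14 ran from -2.14 to 0.28 (ΔE2), and from -0.81 to 0.73 (ΔSE12313-b).

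**Figure D3:**
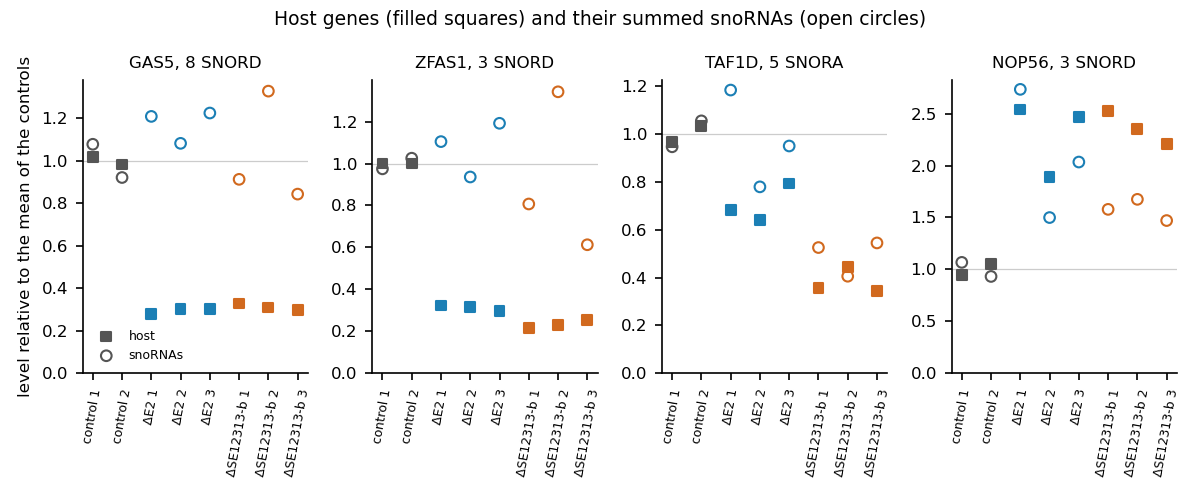
Level in each library relative to the mean of the controls, for 4 host genes (FPKM, filled squares) and the summed RPM of their snoRNAs (open circles). GAS5 and ZFAS1 lie far below 1 in all 6 clones while their SNORD members scatter around 1, and TAF1D and its 5 SNORA members are both low in ΔSE12313-b.

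Of 37 genes of the particles, their assembly and processing, and of rRNA synthesis, 4 were called higher and 0 lower in ΔE2, 5 higher and 1 lower in ΔSE12313-b, and their medians were 0.49 and 0.71 beside 0.14 and 0.27 over all genes. Of all genes tested 11.2% were called higher and 8.36% lower in ΔE2, and 14.7% and 7.83% in ΔSE12313-b. Calls upwards were thus no more frequent among the 37 than over all genes. All 4 C/D core proteins passed an adjusted p under 0.05 in limma in both deletions, as did 54.1% and 59.4% of all genes tested. NOP56 rose by 1.19 and 1.24, NOP58 by 1.13 and 1.15, and FBL was higher by 0.75 and 0.90. Of the H/ACA core DKC1 was higher by 0.68 and 0.61, NHP2 by 0.66 and 0.79, and NOP10 by 0.40 and 0.68, while GAR1 changed by 0.04 and -0.44. WRAP53, which brings H/ACA RNAs to Cajal bodies, rose by 1.68 and 1.66, and DBR1, which opens the intron lariats that snoRNAs are cut from, by 1.02 and 1.64. TERC, the RNA of telomerase and an H/ACA RNA itself, was at 105 and 88.6 FPKM in the controls, 75.2, 50.9 and 48.5 in ΔE2 and 50.6, 39.6 and 50.2 in ΔSE12313-b, and it fell by 1.05 in ΔSE12313-b.

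Of the small Cajal body RNAs, which guide modification of spliceosomal RNAs with the same boxes, 14 had a mean of at least 5 FPKM. In ΔE2 7 fell and 0 rose, and in ΔSE12313-b 8 fell and 0 rose (limma), with medians of -1.05 and -1.04. Of all genes tested 8.36% were called lower and 11.2% higher in ΔE2, and 7.83% and 14.7% in ΔSE12313-b. Between the deletions 2 of the 14 were called higher in ΔE2 and 0 lower, beside 1.6% and 2.63% of all genes. Their median difference was 0.34, beside -0.11 over all genes. SCARNA7 had 191 and 204 FPKM in the controls and 46.9, 38.2 and 32.1 in ΔE2. Of 95 other small RNAs in all, 77 of them microRNA precursors, 15 rose and 17 fell in ΔE2, and 20 rose and 20 fell in ΔSE12313-b. Between the deletions 3 of the 95 were called higher in ΔE2 and 3 lower, with a median difference of -0.02. RMRP, an RNA of a ribosomal processing enzyme, differed by -0.05 in ΔE2 and -0.54 in ΔSE12313-b (limma, adjusted p = 0.776 and 0.0135). In ΔE2 against ΔSE12313-b RMRP differed by 0.48 (limma, adjusted p = 0.0296), which stayed under 2-fold.

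The line's identity was checked on marker genes. Endothelial TIE1, CDH5 and ENG were present in all libraries, CLDN5 was at 0 FPKM and KDR under 0.3, and of 8 endothelial markers tested 3 rose and 1 fell in ΔE2, and 2 rose and 1 fell in ΔSE12313-b. Of 6 epithelial markers KRT7, KRT8 and KRT18 rose in both deletions, while CDH1 was at 0 and KRT19 at 0.16 FPKM or less. EPCAM had 0.554 and 0.243 FPKM in the controls and 0.215 or less in every clone. These low markers were under the filter of the test. The summed FPKM of all 6 ran from 361 to 363 in the controls, 1084 to 1210 in ΔE2 and 811 to 1069 in ΔSE12313-b. All 4 fibroblast markers summed to at most 0.163 FPKM. Of 4 leukocyte markers CD3E was at 0 and PTPRC at 0.012 or less, and the sum of 24.97 to 40.6 FPKM was mostly CD68. The part of these differences in the snoRNA values was not tested.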

How the data were processed

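The authors isolated total RNA, depleted ribosomal RNA and sequenced single reads. Per the labels, reads were trimmed with Trim Galore 0.4.4 and mapped to GRCh37 with STAR 2.5.4b. The authors deposited a table of FPKM with 1 line for each of 65572 RefSeq transcripts, along with columns of transcript length and copy number, and the tool and the handling of strand behind it are not given in the sources used here. Where a symbol had several transcripts, the transcript with the highest mean stood for its symbol.

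Genes with at least 0.5 FPKM in at least 2 libraries (13790) were tested in R 4.3.3 by limma 3.58.1 after adding 0.1 FPKM and taking log2 (3 groups, empirical Bayes with a trend, two-sided, Benjamini-Hochberg over all genes). Fold changes are on that scale and understate those of low genes. A call needs an adjusted p under 0.05 and a fold of at least 2. The p-values measure the spread between libraries of a group, which for clones is the spread between clones and for the controls may be technical. The steps were tested on simulated data. Reads were recovered from FPKM, length and the library's step, and 100% of values came out whole within 0.1 read. Intervals of read ratios are exact binomial ones.

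The members, their hosts and all lists were chosen with earlier results of these data known, and both deletions share the control libraries. Members were named by a rule: the 6 most abundant of each class, the 6 largest called changes each way in each comparison, the neighbours of the threshold, hosts with at least 4 members, and at most 6 called pathway genes. ZFAS1, SNORA17B, SNORA18, SNORA63, SNORA81, SNORD5, SNORD12 copies, SNORD80, SNORD31, SNORD57, SNORD58C, SNORD110, the small Cajal body RNAs named, and the core proteins beside those 6 were named after their values were seen. Members were matched to the main coding transcripts only (GENCODE, GRCh37), with blastn 2.17.0+. Alternatives were other pseudocounts, filters, scalings, a replicate block, single libraries left out, no trend, only the groups compared, voom on recovered reads, and other thresholds of call and level. SNORD3A, SNORD118, SNORD13, SNORA73A and SNORD14 copies were not analysed here. A host gene and some sequences are not reported here.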

Additional observations from a re-analysis of the deposited data

Results flagged for a closer look

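The effects of the deletions differed from each other, by the limma contrast of ΔE2 against ΔSE12313-b, for 8 snoRNAs, each time with the higher level in ΔE2 and without overlap of the clones. The clones of both deletions did not overlap for 29.5% of the members and 40.8% of all genes tested. On the log2 scale the differences were 2.12 for SNORA84, 1.95 for SNORA23, 1.73 for SNORD101, 1.63 for SNORA74A, 1.51 for SNORA33, 1.47 for SNORA32, 1.16 for SNORA73B and 1.00 for SNORD15B. SNORA23 and SNORA74A were called higher in ΔE2 against the controls, and the other 6 were called lower in ΔSE12313-b against the controls. SNORA33, SNORA74A, SNORA84 and SNORD101 had a mean under 5 FPKM over the libraries outside ΔE2. Their differences are thus not independent of how members were chosen and are a description.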

How the results depend on the processing

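No member called in any comparison changed its direction under any setting. The count of members called was 12 in ΔE2, 21 in ΔSE12313-b and 8 between the deletions. It was 19, 34 and 12 after quantile normalization, 22, 32 and 19 at a fold of 1.5, and 26, 37 and 22 at any fold. It was 21, 38 and 16 for members with a mean of at least 1 FPKM, 5, 6 and 3 with at least 20, and 7, 12 and 4 with at least 5 in every group. Between the deletions it was 5 without the trend and 5 with only the groups compared. Leaving out single libraries gave 10 to 16, 16 to 25 and 5 to 15. Rescaling moved the split of higher and lower calls, from 7 and 5 to 6 and 8 (centred) or 6 and 13 (quantile) in ΔE2, and from 6 and 15 to 2 and 25 or 3 and 31 in ΔSE12313-b. In all settings together 8 of the 12, 10 of the 21 and 3 of the 8 calls were kept. The median of SNORA minus that of SNORD was 0.32 in place of -0.02 (ΔE2) and 0.27 in place of -0.11 (ΔSE12313-b) for members of at least 20 FPKM, and over single libraries left out it ran from -0.04 to 0.04, from -0.38 to 0.37 and, between the deletions, from -0.04 to 0.41. The cause was not tested. Without members that match a messenger, and with shared reads counted once, alternatives added after the data were seen, the counts were 12, 21 and 8, and 12, 20 and 8.

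The replicate numbers are shared only as numbers. Deviations of libraries with the same number correlated between -0.08 and 0.11 over all genes. With the replicate block the counts were 14, 20 and 8, of which 10, 16 and 6 were calls of the fit without it. The medians of SNORA and SNORD were then 0.10 and 0.24 in ΔE2, and -0.45 and -0.23 in ΔSE12313-b. A median of 10.5 reads stood behind a SNORD member, and the size of change that this depth can show was not tested.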
